A study of Mus musculus with 126 samples.

Results

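Retinoic acid is made, bound and broken down by a small set of proteins, and 9 of their genes were followed here through single cells of the embryonic endolymphatic sac: the synthesis enzymes Aldh1a1, Aldh1a2 and Aldh1a3, the receptors Rarb and Rarg, the binding proteins Crabp1 and Crabp2, and the breakdown enzymes Cyp26a1 and Cyp26b1. The endolymphatic sac is a closed pouch of the inner ear, lined by epithelium, that takes part in regulating the fluid of the inner ear. The genes were taken by name from a table of 48490 gene identifiers, and they were chosen by function with their values in these cells already known. They were described in cells with Epcam, an epithelial adhesion protein, at 1 FPKM or more (fragments counted per kilobase of a transcript and scaled to the total mapped in that cell), which kept 81 of 93 mutant cells and 32 of 33 wild-type cells, or 113 of 126 cells in all.

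The mouse embryos were at stage E14.5, and every library was made from 1 dissociated cell by the Smart-seq2 protocol, which amplifies full-length cDNA. Mutant cells carried the Sox9 Y440X/+ genotype, a premature stop in 1 copy of the gene for the transcription factor SOX9, and wild-type cells were the comparison. The labels name no strain, animal, litter or plate, so each genotype counted as 1 sample of many cells, and no test was possible. All values below are descriptions. Intervals are exact Clopper-Pearson 95% intervals for a share of cells, and they cover counting error only, not the spread between embryos. All mutant cells and 1 wild-type cell shared 1 title prefix and the other 32 wild-type cells another, so genotype and prefix cannot be told apart.

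Mutant Epcam cells had a median of 4453 genes listed above 0 FPKM (2035 to 9358) and wild-type Epcam cells a median of 5244 (2189 to 6493). The FPKM summed over a cell were unequal. Their median was 455389 in mutant Epcam cells (302467 to 3.77e+06) and 494745 in wild-type Epcam cells (391907 to 1.64e+07). Levels below were not rescaled, except in the alternatives that say so. All 7 of the epithelial markers looked at were found in most Epcam cells of both genotypes. The summed level of 9 mesenchymal markers had a median of 0 FPKM in both, with a maximum of 1363 in mutant cells and 1575 in wild-type cells. A Y-linked gene was detected in 4 of the 93 cells labelled mutant. The share of cells with both Aldh1a1 and Aldh1a3 and the shares with either dominant are therefore given with and without these 4. Xist, expressed from the inactive X chromosome of females, was detected in 71 of 81 mutant and 0 of 32 wild-type Epcam cells, and a Y-linked gene in 4 and 31 of them. Genotype and sex therefore cannot be told apart either.

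As background, retinol enters cells and is oxidised to retinal, and the aldehyde dehydrogenases of the ALDH1A family carry out the last, irreversible step to retinoic acid. Retinoic acid is carried in the cytoplasm by the CRABP proteins, reaches the nuclear receptors RAR, which bind DNA with RXR partners, and is cleared by enzymes of the CYP26 family. In the developing inner ear, synthesis and breakdown enzymes occupy different epithelial domains, and too much or too little retinoic acid disturbs ear development.

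Rarb and Cyp26a1 are textbook direct targets of retinoic acid, and their promoters show the element through which the receptors act. The sequences are the 250 bases before the annotated start, from RefSeq for the mouse assembly GRCm38.p6, written 5′ to 3′ on the strand of the gene. Capitals mark a direct repeat of half-sites, each AGGTCA or AGTTCA or GGGTCA or GGTTCA, with a spacer of 5 bases, read on both strands. The Rarb window is chr14:16575477-16575726 on the minus strand, and its repeat lies on the strand of the gene. The Cyp26a1 window is chr19:37697558-37697807 on the plus strand, and its repeat lies on the opposite strand.
Rarb: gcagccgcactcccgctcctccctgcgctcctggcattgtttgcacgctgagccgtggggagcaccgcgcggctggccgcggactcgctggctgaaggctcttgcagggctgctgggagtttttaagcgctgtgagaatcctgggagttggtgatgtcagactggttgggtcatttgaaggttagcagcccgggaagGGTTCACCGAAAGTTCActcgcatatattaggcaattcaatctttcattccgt
Cyp26a1: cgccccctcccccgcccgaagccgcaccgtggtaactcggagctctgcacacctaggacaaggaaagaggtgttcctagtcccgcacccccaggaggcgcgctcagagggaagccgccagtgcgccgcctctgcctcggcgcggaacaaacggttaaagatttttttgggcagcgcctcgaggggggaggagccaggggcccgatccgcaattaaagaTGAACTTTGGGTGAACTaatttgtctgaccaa
The repeat begins 53 bases before the start in Rarb and 32 bases before it in Cyp26a1. It was found in 29 of 32851 promoter windows (0.0883%). Of the 9 members, 7 matched an entry of the promoter table, and the other 5 of these held no such repeat in their windows. Repeats with spacers of 2 and 1 bases, which lay in 0.174% and 0.164% of all windows, were in none of the 7. A match is a description of letters in a window. The data give the levels of both genes, which differed: Rarb was detected in 25 of 81 mutant and 8 of 32 wild-type Epcam cells, and Cyp26a1 in none of either.

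Aldh1a1 and Aldh1a3, both retinal dehydrogenases, were the main members detected, and they were seldom high in the same cell. Aldh1a1 (ENSMUSG00000053279.6) is listed in the deposited table at chromosome 19, 20601961 to 20643462, plus strand, in mm10, and Aldh1a3 (ENSMUSG00000015134.15) at chromosome 7, 66390890 to 66427517, minus strand. At least 1 of the pair was at 1 FPKM or more in 76 of 81 mutant Epcam cells (93.8%) and in 30 of 32 wild-type Epcam cells (93.8%). Exactly 1 of the pair was detected in 69 of 81 mutant cells (85.2%, interval 75.6 to 92.1) and in 21 of 32 wild-type cells (65.6%, 46.8 to 81.4). Both were detected in 7 of 81 mutant cells (8.64%, 3.55 to 17) and in 9 of 32 wild-type cells (28.1%, 13.7 to 46.7).

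**Figure D1:**
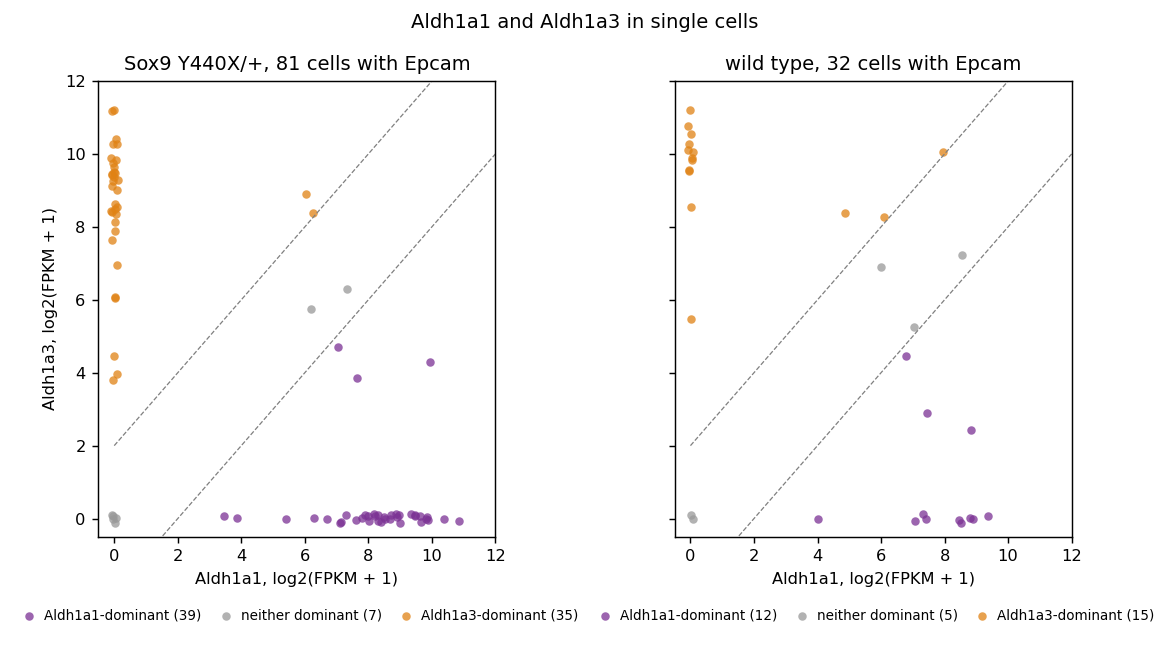
Aldh1a1 (x axis) and Aldh1a3 (y axis) in each Epcam cell on a log2(FPKM + 1) scale, mutant cells in the left panel and wild-type cells in the right. Points at 0 are spread slightly for visibility, and the dashed lines mark a 4-fold difference of FPKM + 1. Most cells lie along 1 of the axes, with 7 of 81 mutant and 9 of 32 wild-type cells away from both.

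The split can be read either way. Aldh1a3 was detected in 7 of 43 mutant cells with Aldh1a1 (16.3%, 6.81 to 30.7) and in 33 of 38 mutant cells without it (86.8%, 71.9 to 95.6). In wild-type cells it was detected in 9 of 18 with Aldh1a1 (interval 26 to 74) and in 12 of 14 without it (85.7%, 57.2 to 98.2). Across cells, the Pearson correlation of log2(FPKM + 1) was -0.75 over 81 mutant cells and -0.61 over 32 wild-type cells, cells that share the Smart-seq2 protocol and differ in depth. This exclusion is part of how the genes were chosen, so it carries no test.

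Detection in Aldh1a1 was close to all or none. No Epcam cell had Aldh1a1 above 0 and under 10 FPKM. Among mutant cells with the gene the lowest level was 10.04 FPKM, the median 315 FPKM and the highest 1841 FPKM, and among wild-type cells with it 15.2, 172 and 655 FPKM. For Aldh1a3 the lowest, median and highest levels in cells with the gene were 13, 384 and 2346 FPKM in mutant cells and 4.40, 743 and 2370 FPKM in wild-type cells. The ranges of each gene overlapped widely between the genotypes.

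Even the cells with both enzymes were mostly uneven. In the 7 mutant cells the Aldh1a1 and Aldh1a3 levels, in that order within each cell, were 983 and 18.5, 159 and 77.8, 64.5 and 481, 199.9 and 13.5, 72.6 and 52.4, 75.7 and 330.1, and 132 and 24.9 FPKM. In the 9 wild-type cells they were 109 and 21, 67.6 and 305, 248 and 1069, 63.6 and 119, 453 and 4.40, 172 and 6.41, 372 and 149.9, 28.2 and 335, and 131 and 36.9 FPKM. The higher of the pair exceeded the lower by a median of 5.31-fold in mutant cells (1.39 to 53.1) and 4.51-fold in wild-type cells (1.87 to 103). Aldh1a1 was the higher in 5 of the 7 mutant cells and in 5 of the 9 wild-type cells.

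The number of such cells was set beside depth and cell type. Cells with both enzymes had a median of 5637 listed genes in mutants and 5843 in wild type, against 4453 and 5082 in cells with exactly 1. Among cells with 3000 to 5000 listed genes, 5.66% of mutant and 16.7% of wild-type cells had both, and that window leaves 53 mutant and 12 wild-type cells. Of the 7 mutant cells with both, 3 were among the 4 cells with a Y-linked gene. Without those 4, the share of mutant cells with both was 5.19%, and it was 28.1% in wild type. Foxi1, the transcription factor of mitochondria-rich cells, the ion-transporting cells of the sac, was present in 2 of the mutant and 2 of the wild-type cells with both. Without Foxi1 cells the shares were 7.14% in mutant and 25.9% in wild-type cells. The part of depth in the genotype difference was not tested.

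Reads shared between near copies bear on Aldh1a1. Aldh1a7, its neighbour on chromosome 19, shares 151 of the 4934 words of 50 bases in Aldh1a1 (3.06%), and Aldh1a3 shares 0. Aldh1a7 was detected in 6 of 81 mutant and 1 of 32 wild-type Epcam cells, and in mutants in 5 of 39 cells where Aldh1a1 was the higher by 4-fold or more and 0 of 35 where Aldh1a3 was.

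Levels of the pair by genotype differed for Aldh1a3. Aldh1a1 was detected in 43 of 81 mutant cells (53.1%, 41.7 to 64.3) and 18 of 32 wild-type cells (56.2%, 37.7 to 73.6), with a mean log2(FPKM + 1) of 4.28 ± 4.21 in mutant and 4.17 ± 3.89 in wild-type cells (SD over cells). Aldh1a3 was detected in 40 of 81 mutant cells (49.4%, 38.1 to 60.7) and 21 of 32 wild-type cells (65.6%, 46.8 to 81.4), with means of 4.0 ± 4.34 and 5.37 ± 4.48 in the same order. Over 10575 genes compared the median difference, mutant minus wild type, was -0.19, and differences were read relative to it. A difference of at least 1 log2 unit from that median counted as past the size rule. Aldh1a3 was past it (-1.17), and Aldh1a1 was not (0.30). The Aldh1a3 call ended with a pseudocount of 10 FPKM (-0.83) and when only genes detected in at least 50% of cells were kept (-0.90), where the median of all genes itself moved to -0.46. It was -2.21 among cells with 3000 to 5000 listed genes.

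Of the 9 members, 5 passed the filter for this comparison, detection in at least 10% of the cells of either genotype, and 1 of these was past the size rule, against 6.88% of all genes compared (204 higher and 524 lower in mutant cells). The genotypes were part of how the genes were picked, so nothing is read from that count. By mean log2(FPKM + 1) the order in mutant cells was Aldh1a1, Aldh1a3, Rarg, Rarb, Crabp2, Cyp26b1 and Crabp1, and in wild-type cells Aldh1a3, Aldh1a1, Rarg, Rarb, Cyp26b1 and Crabp2. Neighbours in either order differed by less than their SD over cells, except Aldh1a3 and Rarg in mutant cells, where the gap exceeded the SD of Rarg only, and the same for Aldh1a1 and Rarg in wild-type cells.

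**Figure D2:**
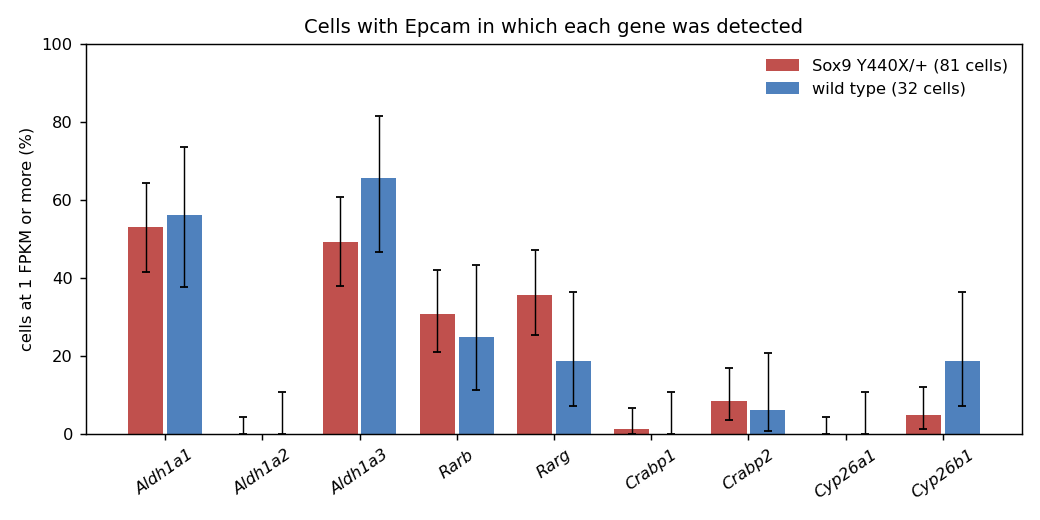
Share of Epcam cells with each member at 1 FPKM or more (y axis, percent), mutant bars left of wild-type bars, with exact 95% intervals for counting error over 81 and 32 cells. Aldh1a1 and Aldh1a3 exceed all others, the intervals of the genotypes overlap for every member, and Aldh1a2 and Cyp26a1 are at 0.

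Aldh1a2 (ENSMUSG00000013584.5; chromosome 9, 71215789 to 71296243, plus strand), the main retinoic acid synthesis enzyme of early embryonic mesoderm, was at 0 FPKM in all Epcam cells. A count of 0 allows a share of cells with detection of up to 3.70% in mutants and 9.38% in wild type, taken as 3 counts over the number of cells, and the exact intervals reach 4.45% and 10.9%. These limits are on detection, not on expression.

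The receptors were detected in a minority of cells and at lower levels. Rarb (ENSMUSG00000017491.8; chromosome 14, 16430842 to 16575472, minus strand), itself induced by retinoic acid in many tissues, was at 1 FPKM or more in 25 of 81 mutant cells (30.9%, 21.1 to 42.1) and 8 of 32 wild-type cells (25%, 11.5 to 43.4). Where present it had a lowest, median and highest level of 1.88, 23.8 and 164 FPKM in mutant cells and of 2.37, 7.74 and 88.5 FPKM in wild-type cells. Its gene model overlaps that of the neighbouring gene Top2b, and reads from the overlap cannot be told apart without strand. Rarg (ENSMUSG00000001288.14; chromosome 15, 102234938 to 102257517, minus strand), a receptor of epithelia and cartilage, was at 1 FPKM or more in 29 of 81 mutant cells (35.8%, 25.4 to 47.2) and 6 of 32 wild-type cells (18.8%, 7.21 to 36.4). Where present it had 1.09, 15.4 and 48.8 FPKM in mutant cells and 5.42, 46.1 and 95.1 FPKM in wild-type cells, as lowest, median and highest. Mean log2(FPKM + 1) was 1.36 ± 2.20 in mutant and 0.96 ± 1.84 in wild-type cells for Rarb, and 1.39 ± 2.03 and 1.01 ± 2.12 for Rarg. Relative to the median of all genes, the differences were 0.59 for Rarb and 0.57 for Rarg, under the size rule, and the Rarg value was -0.34 among cells with 3000 to 5000 listed genes.

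Rarb and Rarg were seen together in some cells and apart in others. Both were detected in 9 of 81 mutant cells, Rarb alone in 16, Rarg alone in 20 and neither in 36. In wild-type cells both were detected in 1 of 32, Rarb alone in 7, Rarg alone in 5 and neither in 19.

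The binding proteins were rarer. Crabp2 (ENSMUSG00000004885.5; chromosome 3, 87948666 to 87953376, plus strand), which delivers retinoic acid to its receptors, was detected in 7 of 81 mutant cells (8.64%, 3.55 to 17) at 31.4 to 98.8 FPKM. In wild type it was detected in 2 of 32 cells (6.25%, 0.77 to 20.8), at 97.1 and 137 FPKM. Crabp1 (ENSMUSG00000032291.8; chromosome 9, 54764748 to 54773110, plus strand) was detected in 1 of 81 mutant cells, at 36.3 FPKM, and in none of 32 wild-type cells (exact interval up to 10.9%). That 1 mutant cell had 7074 listed genes, and it also had Aldh1a3 at 392 FPKM and Crabp2 at 55.1 FPKM.

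Of the breakdown enzymes, Cyp26b1 (ENSMUSG00000063415.12; chromosome 6, 84571414 to 84593908, minus strand) was detected in 4 of 81 mutant cells (4.94%, 1.36 to 12.2), at 1.0, 8.42, 13.2 and 27.2 FPKM. In wild type it was detected in 6 of 32 cells (18.8%, 7.21 to 36.4), at 2.25 to 11.7 FPKM. The levels overlapped, and the difference relative to the median was -0.18, since most cells of both genotypes were at 0. Cyp26a1 (ENSMUSG00000024987.5; chromosome 19, 37697808 to 37701528, plus strand), whose promoter is printed above, was at 0 in all 113 Epcam cells, with the same limits on detection as Aldh1a2.

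To ask which other members went with each synthesis enzyme, Epcam cells were divided by a 4-fold difference of FPKM + 1 between Aldh1a1 and Aldh1a3. Aldh1a1 was dominant in 39 of 81 mutant cells (48.1%, 36.9 to 59.5) and 12 of 32 wild-type cells (37.5%, 21.1 to 56.3). Aldh1a3 was dominant in 35 mutant cells (43.2%, 32.2 to 54.7) and 15 wild-type cells (46.9%, 29.1 to 65.3). Without the 4 mutant cells with a Y-linked gene the mutant shares were 49.4% Aldh1a1-dominant and 42.9% Aldh1a3-dominant. The other 7 mutant and 5 wild-type cells had neither dominant. These classes are ranges of a ratio, not cell types. The cells nearest the limits were few: just inside were wild-type cells with 109 and 21 FPKM and with 248 and 1069 FPKM of Aldh1a1 and Aldh1a3, and just outside wild-type cells with 131 and 36.9 FPKM and with 63.6 and 119 FPKM. Aldh1a1-dominant cells had a median of 4659 listed genes in mutants and 5462 in wild type, against 4268 and 4898 in Aldh1a3-dominant cells.

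Within its own class, Aldh1a1 had a median of 339 FPKM in mutant and 262 FPKM in wild-type cells. The median of Aldh1a3 in Aldh1a3-dominant cells was 514 FPKM in mutant and 953 FPKM in wild-type cells. Summed over both enzymes, a cell had 10.04 to 1841 FPKM if Aldh1a1-dominant and 13 to 2346 FPKM if Aldh1a3-dominant in mutants. In wild type the ranges were 15.2 to 655 FPKM and 43.2 to 2370 FPKM.

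Crabp2 cells were nearly all Aldh1a3 cells. In mutants Crabp2 was detected in 1 of 39 Aldh1a1-dominant cells (2.56%, 0.06 to 13.5) and in 6 of 35 Aldh1a3-dominant cells (17.1%, 6.56 to 33.6). In wild type it was detected in 0 of 12 Aldh1a1-dominant cells (exact interval up to 26.5%) and in 2 of 15 Aldh1a3-dominant cells (13.3%, 1.66 to 40.5). Counted by detection, 6 of the 7 mutant and both of the wild-type Crabp2 cells had Aldh1a3 without Aldh1a1, and the remaining mutant cell had Aldh1a1 alone. The intervals of the classes overlapped in each genotype, and the differences, -0.90 in mutant and -0.95 in wild type relative to the median of all genes, were under the size rule. Mutant cells with Crabp2 had a median of 4800 listed genes and mutant cells without it 4405.5, whereas in wild type the medians were 4799 with and 5281.5 without. In the window of 3000 to 5000 listed genes the shares were 4.55% of Aldh1a1-dominant and 15.4% of Aldh1a3-dominant mutant cells, and 0 and 12.5% in wild type.

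Cyp26b1 leaned the same way on few cells. It was detected in 1 of 39 Aldh1a1-dominant (2.56%) and 3 of 35 Aldh1a3-dominant mutant cells (8.57%), which was under the filter for a comparison. In wild type it was detected in 1 of 12 Aldh1a1-dominant (8.33%) and 5 of 15 Aldh1a3-dominant cells (33.3%, 11.8 to 61.6), a difference of -0.90. By detection, 3 of the 4 mutant Cyp26b1 cells had Aldh1a3 alone, and of the 6 wild-type ones 3 had Aldh1a3 alone, 2 had both enzymes and 1 had Aldh1a1 alone.

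**Figure D3:**
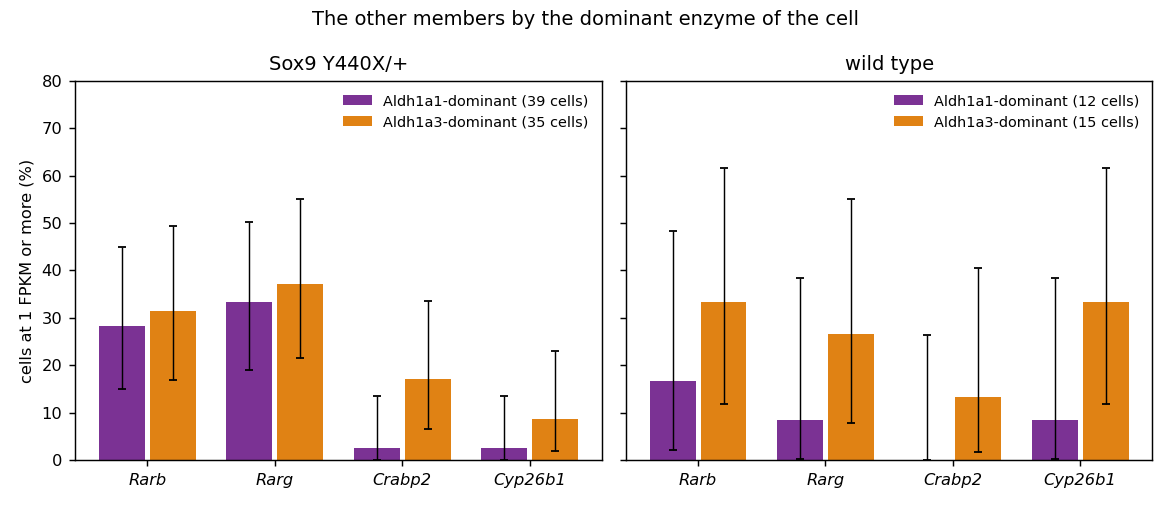
Share of cells with each of the other members at 1 FPKM or more (y axis, percent) in Aldh1a1-dominant and Aldh1a3-dominant cells, mutant in the left panel and wild type in the right, with exact 95% intervals for counting error. Crabp2 stands at 2.56% against 17.1% in mutant cells and at 0 against 13.3% in wild-type cells, while Rarb and Rarg are close between classes in mutant cells.

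The receptors were detected in both classes. Rarb was detected in 11 of 39 Aldh1a1-dominant (28.2%) and 11 of 35 Aldh1a3-dominant mutant cells (31.4%), and in 2 of 12 and 5 of 15 wild-type cells of the same classes. Rarg was detected in 13 of 39 Aldh1a1-dominant and 13 of 35 Aldh1a3-dominant mutant cells. In wild type it was detected in 1 of 12 Aldh1a1-dominant (8.33%) and 4 of 15 Aldh1a3-dominant cells (26.7%). Relative to the median of all genes compared, Rarb differed by -0.38 in mutant and -0.62 in wild type, and Rarg by -0.38 in mutant and -1.23 in wild type, where it was -0.66 with a pseudocount of 10 FPKM. In mutant cells with 3000 to 5000 listed genes the sign turned for both, to 0.25 for Rarb and 0.27 for Rarg.

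In mutants 0 of the 3 other members compared were past the size rule between the classes, against 12% of 10861 genes. In wild type it was 1 of 4, Rarg, against 23.9% of 11237 genes. Of the 3 compared in both genotypes, 0 were past it the same way in both, against 5.56% of 9920 genes. These shares are near or under the background, and in wild type 12 and 15 cells stand behind the means.

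Among markers of the mitochondria-rich cell, Foxi1 was detected more often in Aldh1a1-dominant than in Aldh1a3-dominant cells. Foxi1 was detected in 8 of 39 Aldh1a1-dominant mutant cells (20.5%) and 1 of 35 Aldh1a3-dominant mutant cells (2.86%), and in 4 of 12 (33.3%) and 0 of 15 wild-type cells of the same classes. It was also detected in 2 of the 7 mutant cells (28.6%) and 1 of the 5 wild-type cells (20%) with neither dominant, so it was not particular to the Aldh1a1-dominant class. The summed level of the 6 markers of that cell type ranged over 0 to 1450 FPKM in Aldh1a1-dominant and 0 to 496 FPKM in Aldh1a3-dominant mutant cells. In wild type the ranges were 0 to 2370 FPKM and 0 to 0.1 FPKM. The median of the sum was 0 FPKM in both classes of both genotypes, so a minority of cells set these maxima. Over all Epcam cells the sum reached 2766 FPKM in mutant and 3247 FPKM in wild type, in cells with neither dominant. Aldh1a1 was detected in 9 of 11 mutant and 5 of 5 wild-type Foxi1 cells. These were 9 of the 43 mutant and 5 of the 18 wild-type cells with Aldh1a1, so Foxi1 cells made up a minority of the Aldh1a1 cells. Oc90, an otoconial matrix protein, was detected in 20 of 39 Aldh1a1-dominant and 10 of 35 Aldh1a3-dominant mutant cells, and in all wild-type cells of both classes.

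Outside the pathway, the 8 genes whose pattern over cells was most like each enzyme were taken from 5533 genes detected in at least 20% of the Epcam cells of each genotype. Likeness was the lower of the Pearson correlations of log2(FPKM + 1) over the 81 mutant and the 32 wild-type cells. Closest to Aldh1a1 were Perp, a desmosome-associated membrane protein, with 0.65 in mutant and 0.65 in wild type, and Pcolce, an enhancer of procollagen processing, with 0.66 and 0.60. After them came Sp8, a zinc finger transcription factor (0.62 and 0.58), and Pcsk2, a prohormone-processing protease (0.60 and 0.57). Dmkn, Rcan2, Klk10 and Gnas completed the set, with correlations of 0.50 to 0.61. The 95th percentile of that lower correlation over all eligible genes was 0.23 for Aldh1a1.

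Perp was detected in all Aldh1a1-dominant cells of both genotypes, at a median of 300.2 FPKM in mutant and 588 FPKM in wild-type cells, and in 57.1% of mutant and 93.3% of wild-type Aldh1a3-dominant cells, at medians of 35.5 and 61.4 FPKM. Sp8 was present in most Aldh1a1-dominant and in few Aldh1a3-dominant cells. It was detected in 28 of 39 Aldh1a1-dominant (71.8%) and 1 of 35 Aldh1a3-dominant mutant cells (2.86%), and in 10 of 12 (83.3%) and 3 of 15 wild-type cells. Pcsk2 was detected in 22 of 39 and 1 of 35 mutant cells, and in 9 of 12 and 1 of 15 wild-type cells, of the Aldh1a1-dominant and Aldh1a3-dominant classes. These genes were picked for their likeness over the same cells, so their class values are descriptions.

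Closest to Aldh1a3 was Fam132a, also named C1qtnf12, a secreted protein of the C1q and TNF family, with correlations of 0.70 in mutant and 0.70 in wild-type cells. It was detected in 28.2% of Aldh1a1-dominant and 91.4% of Aldh1a3-dominant mutant cells, and in 41.7% and 100% of the same wild-type classes, with medians of 0 and 155 FPKM in mutant and 0 and 307 FPKM in wild-type cells. Next were Tle2, a Groucho-type corepressor (0.50 in mutant, 0.56 in wild type), and Cdkn1c, an inhibitor of cyclin-dependent kinases (0.49 and 0.56). Id3, an inhibitor of basic helix-loop-helix factors, had 0.66 in mutant and 0.46 in wild type. Meg3, an imprinted long noncoding RNA, had 0.58 and 0.46, and was detected in 7.69% of Aldh1a1-dominant and 62.9% of Aldh1a3-dominant mutant cells, and in 16.7% and 66.7% of the wild-type ones. Nrep, Gstm5 and the ribosomal protein gene Rps3a1 completed the set. The 95th percentile for Aldh1a3 was 0.16. For comparison, Crabp2 reached 0.28 in mutant and 0.30 in wild type with Aldh1a3, and Rarb 0.07 and 0.09. Crabp2 was detected in 8.64% of mutant and 6.25% of wild-type Epcam cells, too few to be among the eligible genes. Its correlations therefore cannot be ranked against the percentile of 0.16.

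**Figure D4:**
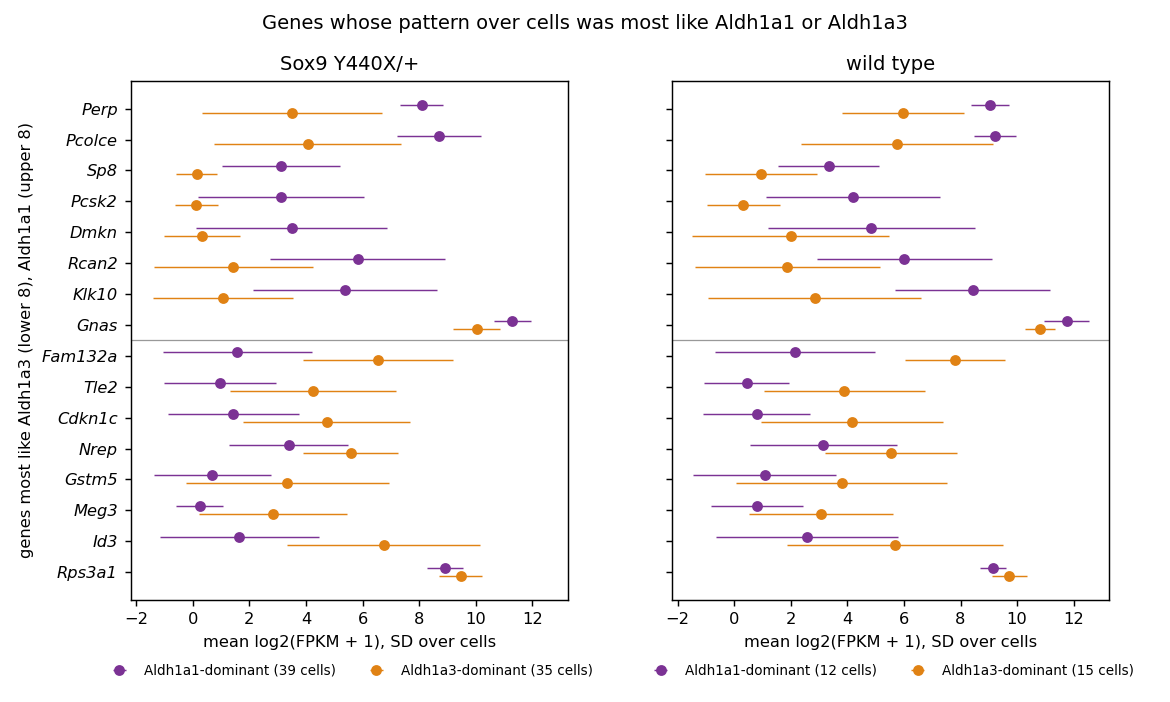
Mean log2(FPKM + 1) (x axis, bars are SD over cells) of the 8 genes most like Aldh1a1 (upper) and the 8 most like Aldh1a3 (lower) in Aldh1a1-dominant and Aldh1a3-dominant cells, mutant left and wild type right. Every gene of the upper set is higher in Aldh1a1-dominant cells and every gene of the lower set lower, as their choice implies. Gnas and Rps3a1 differ least.

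A further 50 genes of retinoid handling were taken as a list, of which 13 were listed at 0 in every cell. Between genotypes 24 could be compared, and 1 was higher and 2 lower in mutant cells past the size rule, with a median of 0.04 relative to all genes. Of all 10575 genes compared, 6.88% were past the rule, 204 higher and 524 lower in mutant cells. Fabp5, a carrier that passes retinoic acid to the receptor PPAR delta, was detected in 27 of 81 mutant cells (33.3%) and 5 of 32 wild-type cells (15.6%), with means of 1.83 ± 2.69 and 0.77 ± 1.84 on the log2 scale and a difference of 1.25 relative to the median. Rdh10, the dehydrogenase that oxidises retinol to retinal, was detected in 66 of 81 mutant cells at a median over all Epcam cells of 61.9 FPKM, and in 30 of 32 wild-type cells at a median of 126 FPKM (-1.02). The Rdh10 call ended under 7 alternatives, at -0.74 to -0.996, among them -0.97 without the 1 wild-type cell that shares the mutant title prefix, -0.89 with median-of-ratios scaling and -0.76 with a pseudocount of 10 FPKM. The Fabp5 call also ended with that pseudocount (0.57), and a filter at 50% of cells left Fabp5 out. Stra6 (0.96) and the coactivator Ncoa2 (0.85) were the next highest, and the coactivator Ncoa3 (-0.64) the next lowest.

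Between the classes, all genes of this list past the size rule were lower in Aldh1a1-dominant cells under the settings used here. Under other settings this was not so: 3 were higher in wild type among cells with 3000 to 5000 listed genes, and 1 was higher in mutants after rescaling each cell or with a pseudocount of 0.1 FPKM. The number lower in mutants was 0 to 2 under 5 alternatives. In mutants 25 of the 50 were compared, 0 were higher and 4 lower, with a median of -0.39. Of all 10861 genes compared in mutants, 814 were higher and 493 lower, together 12%. In wild type 25 of the list were compared, 0 were higher and 8 lower, with a median of -0.69. Of all 11237 genes compared in wild type, 1523 were higher and 1160 lower, together 23.9%. Stra6, the membrane receptor that takes up retinol from its plasma carrier, was past the rule in both genotypes. It was detected in 9 of 39 Aldh1a1-dominant (23.1%) and 15 of 35 Aldh1a3-dominant mutant cells (42.9%), and in 1 of 12 (8.33%) and 6 of 15 wild-type cells. Mean log2(FPKM + 1) was 1.25 ± 2.38 in Aldh1a1-dominant and 2.56 ± 3.13 in Aldh1a3-dominant mutant cells, and 0.43 ± 1.49 and 1.98 ± 2.69 in those classes of wild type (SD over cells). Its differences relative to the median of all genes were -1.41 in mutant and -1.58 in wild type. The Stra6 gene model overlaps those of Ccdc33 and an antisense gene, and reads from the overlap may belong to any of them.

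Rdh10 was the other gene past the rule in both. It was detected in 31 of 39 Aldh1a1-dominant mutant cells, at a median over the class of 54 FPKM, and in 31 of 35 Aldh1a3-dominant mutant cells, at 84.5 FPKM. The wild-type values were 11 of 12 at 96.1 FPKM and 15 of 15 at 159.9 FPKM. Means of log2(FPKM + 1) were 4.81 ± 2.61 in Aldh1a1-dominant and 5.82 ± 2.36 in Aldh1a3-dominant mutant cells, and 5.65 ± 2.39 and 7.16 ± 0.81 in wild type. The differences relative to the median were -1.11 in mutant and -1.54 in wild type. For both genes the mutant difference was under the rule among cells with 3000 to 5000 listed genes (-0.57 for Stra6, -0.47 for Rdh10) and with a pseudocount of 10 FPKM (-0.74 for Stra6, -0.77 for Rdh10). With that pseudocount Stra6 was under the rule in wild type too (-0.87). Rdh10 was under the rule without Foxi1 cells in both genotypes (-0.85 in mutant, -0.72 in wild type), and in mutants without cells with mesenchymal markers (-0.95).

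By role, 3 genes of retinol uptake and storage were compared, and 1 was lower in mutant and 3 in wild-type Aldh1a1-dominant cells. Among the 6 oxidation and reduction genes, 3 were lower in mutant and 2 in wild-type cells. The 10 coregulators included 0 lower genes in mutant and 1, the corepressor Ncor1 (-1.04), in wild-type cells. Over all genes compared, 12% were past the rule in either direction in mutants and 23.9% in wild type. With so few genes in each role, nothing is read from these counts. The other mutant genes past the rule were Adh5 (-1.36), a formaldehyde-clearing alcohol dehydrogenase, and Rdh13 (-1.05). Others in wild type were Rarres2 (-1.89), the gene of the chemoattractant chemerin, Dgat1 (-1.63), an acyltransferase that can esterify retinol, Rdh14 (-1.57) and the receptor partner Rxrb (-1.13). Dgat1 and Rxrb turned to 0.49 and 0.092 among wild-type cells with 3000 to 5000 listed genes. At the upper end, under the rule, stood Rdh14 (0.88), the mediator subunit Med1 (0.40) and Rarres2 (0.38) in mutant cells. In wild-type cells the upper end held Nrip1 (0.47) and Med1 (0.20).

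Cells below the Epcam limit lacked Aldh1a1 and held Cyp26a1 in 1 cell of each genotype. The 12 such mutant cells had a median of 638 FPKM for the summed mesenchymal markers (0 to 2141), and Epcam was at 0 in all 13 of them with the 1 wild-type cell. The 12 were mixed. Their summed epithelial markers had a median of 0 and a maximum of 908 FPKM, with up to 5 of 7 markers in a cell. Their summed endothelial markers had a median of 0 and a maximum of 1016 FPKM, with up to 5 of 5 markers in a cell. Rarb was detected in 8 of the 12 mutant cells (66.7%, 34.9 to 90.1), at 6.59 to 118 FPKM, and at 13.9 FPKM in the wild-type cell. Rarg was detected in 4 of the 12 mutant cells. Aldh1a1 was at 0 in all 13. Aldh1a3 was detected in 1 mutant cell, at 1728 FPKM, together with Crabp2 at 98.9 FPKM and Rarg at 43.1 FPKM, and in the wild-type cell, at 74.7 FPKM. Cyp26a1, at 0 in every Epcam cell, was detected in 1 mutant cell, at 165 FPKM beside Rarb at 118 FPKM, and in the wild-type cell, at 253 FPKM.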

How the data were processed

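The deposited table holds FPKM per gene and cell, computed by the authors. For genome build mm10, Cufflinks, HTSeq, HISAT2 and SAMtools 0.1.18 are credited to the submitters' processing notes, which state no role for any; strand use is not given in the sources used here. Read depth is therefore unknown, and the number of genes listed above 0 stands in for it. Of 10 widely used genes, 9 were at 0 in none of the 113 Epcam cells and Hprt in 28, so a 0 can be a missed transcript.

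From these values, detection (1 FPKM or more), means of log2(FPKM + 1), their differences relative to the median gene, ratios and correlations were computed with Python 3.11.15, numpy 2.4.6, pandas 2.3.3 and scipy 1.17.1, after the code was tested on simulated data. Fold differences on this scale understate the change of low genes. Doublets were not called. The members and lists were chosen with earlier results of these data known. Named genes were the 9 members, the 3 highest and 3 lowest pathway genes of each comparison with every gene past the size rule, and the 8 most like each enzyme, leaving out predicted genes, pseudogenes, haemoglobin, mitochondrial and sex-linked marker genes. Alternatives varied the pseudocount, detection, filter, gate, class limit, scaling and cells. Median-of-ratios scaling and leaving out cells with 3 or more mesenchymal markers were added after seeing the data. Of the pathway list, 2 genes are included in the counts and are not reported here by name.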

Additional observations from a re-analysis of the deposited data

Results flagged for a closer look

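Between Aldh1a1-dominant and Aldh1a3-dominant cells, 2 pathway genes lay on opposite sides of the median of all genes in the genotypes. Rdh14, a retinol dehydrogenase, differed by 0.88 in mutant and -1.57 in wild-type cells; it was detected in 15 of 39 Aldh1a1-dominant and 5 of 35 Aldh1a3-dominant mutant cells, and in 3 of 12 and 7 of 15 wild-type cells. Rarres2 differed by 0.38 in mutant and -1.89 in wild-type cells, with detection in 6 of 39 and 3 of 35 mutant cells and in 0 of 12 and 4 of 15 wild-type cells. The difference between the genotypes was not tested, since each is 1 sample.

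Cyp26a1 was seen outside the Epcam cells that the comparisons use, at 165 FPKM in 1 mutant cell and 253 FPKM in 1 wild-type cell.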

How the results depend on the processing

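No paired analysis was possible, because no animal is named and the replicate numbers only count cells within each genotype. For the same reason no replicate could be left out. The co-detection share kept between 5.19% and 8.86% in mutant and between 16.7% and 30% in wild-type cells over all alternatives. With 3000 to 5000 listed genes (53 mutant and 12 wild-type cells), the wild-type Aldh1a3-dominant share was 66.7% (46.9% as reported), genes past the size rule numbered 1754 by genotype (728) and 4954 between wild-type classes (2683), wild-type members past it 2 (1), pathway genes 3 higher by genotype (1), 3 higher between wild-type classes (0) and 1 lower between mutant classes (4), and wild-type Dgat1 (-1.63) and Rxrb (-1.13) turned to 0.49 and 0.092. With a pseudocount of 0.1 FPKM genes past the rule numbered 2264 by genotype, 3174 between mutant classes (1307), 5274 between wild-type classes and 1366 in both (552), members 2 by genotype (1), 1 in mutant (0) and 4 in wild type, and higher pathway genes 3 by genotype and 1 between mutant classes. With 10 FPKM these genes numbered 132, 346, 618 and 143, members 0 by genotype and 0 in wild type, and pathway genes 0 higher and 0 lower by genotype, 0 lower in mutant and 2 in wild type (8). With a 50% filter the genes numbered 470, 781, 1622 and 319, members 0 by genotype and 0 in wild type, and pathway genes 0 higher and 0 lower (2) by genotype and 2 lower between mutant classes. Rescaling each cell to 1000000 gave 1105 genes by genotype, 1 member in mutant and 2 in wild type, 1 higher pathway gene between mutant classes, and 2 higher and 1 lower by genotype. Without the gate there was 1 member in mutant. A 16-fold class limit, leaving out cells above 6000 listed genes, and leaving out cells with mesenchymal markers each gave 2 members in wild type. Higher pathway genes by genotype were 2 without Foxi1 cells, without cells above 6000 listed genes, without mesenchymal markers, without Y-linked cells and without the wild-type cell of the mutant prefix. Lower ones by genotype were 1 with detection at 5 FPKM, without the gate and without Y-linked cells, and 0 with median-of-ratios scaling and without the wild-type cell of the mutant prefix. Lower ones between mutant classes were 2 without Foxi1 cells and without mesenchymal markers, and between wild-type classes 5 without mesenchymal markers. The causes were not tested. The genes most like each enzyme stayed at or above the 97.0th percentile of all eligible genes. They were picked from these same cells, so this was largely set by their choice. The lower correlation of Gnas with Aldh1a1 fell from 0.50 to 0.27 among cells with 3000 to 5000 listed genes. That of Rps3a1 with Aldh1a3 fell from 0.46 to 0.29 after rescaling each cell.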

Other observations

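A Y-linked gene was detected in 4 of the 93 cells labelled mutant and Xist in 81. In wild type the Y-linked gene was detected in 32 of 33 cells. The 4 cells all had titles ending in 12, as did 7 mutant cells in all. Their Aldh1a1 and Aldh1a3 levels were 72.6 and 52.4, 0 and 665, 75.7 and 330.1, and 132 and 24.9 FPKM. Rarb was at 68.7, 1.88, 23.8 and 4.65 FPKM in the same order, so all 4 had it at 1 FPKM or more. Without them Rarb was detected in 27.3% of mutant Epcam cells and in 25% of wild-type Epcam cells.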
